A study of Mus musculus with 4 samples.

Results

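Whether loss of CD300a changed gene expression differently in the 2 subsets of cardiac neutrophils was examined gene by gene, in all 4 of the 4 RNA-Seq libraries of the study. For each gene, the difference between knockout and WT cells in SiglecF hi neutrophils was subtracted from the same difference in SiglecF lo neutrophils, and the result is called the interaction. It was computed on log2(TPM + 1), where TPM is the level of a gene scaled for its length and for the total of the library. Genes were chosen only by a mean level over 10 TPM across the 4 libraries, which kept 6523 of the 25655 genes. An interaction above 0 means that the knockout difference was higher in SiglecF lo than in SiglecF hi cells, and a value past 1 in either direction means that the ratio of knockout to WT differed more than 2-fold between the subsets.

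Male mice aged 8 to 12 weeks underwent ligation of the left anterior descending artery and reperfusion (MI/R), and on day 3 CD45.2+CD11b+Ly6G+ cells of the heart were sorted by SiglecF, a sialic acid-binding surface lectin. Each subset was taken from WT mice (C57BL/6J) and from *Cd300a-/-* mice (C57BL/6 background), which made 4 groups, and each group was 1 library from a pool of 8 mice, where the labels do not say whether both subsets of a genotype came from the same mice. The knockout was present in the whole body from birth, so macrophages and all other cells of those hearts also lacked CD300a, and no unoperated heart was sequenced here. Because every group was a single pool, variation between mice was not measured and no p-value is given, and the 95% intervals in parentheses cover the counting error of the 4 counts and nothing else. Because the interaction followed gene length, as described below, the value centred on genes of like length is added in the parentheses of a gene wherever it lay outside the interval, across 0 or across 1.

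CD300a is an inhibitory receptor of myeloid cells that binds phosphatidylserine on dying cells and signals through immunoreceptor tyrosine-based inhibitory motifs in its tail. Neutrophils enter the infarcted heart from the blood, and a part of them carry SiglecF there. A receptor lost from both subsets can be followed for genes that differ in one subset and not in the other.

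Most genes with an interaction differed between the genotypes in SiglecF lo cells and little in SiglecF hi cells. Most endothelial markers were lower in SiglecF lo knockout cells and not in SiglecF hi knockout cells. Most genes of the interferon-stimulated, MHC class I and chemokine lists had an interaction below 0, where 3520 of all 6523 genes were. Few of them passed −1. Centring on genes of like length shrank the medians from −0.55 to −0.43 for interferon-stimulated and from −0.39 to −0.19 for MHC class I genes. For CC and CXC chemokines it shrank them from −0.56 to −0.14 and from −0.58 to −0.28. Several proteases, annexins and glycolysis genes leaned to values above 0, as did 3 of 4 interferon-induced transmembrane genes. Both differences passed 0.5 with opposite signs in only 70 of the 6523 genes tested, *Rtl8a*, *Mgst2*, *Tnc* and *Mb* among them. *Ngp* and *Camp* differed most in SiglecF hi cells.

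The targeted gene was examined first. Levels are given throughout in the order WT SiglecF hi, *Cd300a-/-* SiglecF hi, WT SiglecF lo and *Cd300a-/-* SiglecF lo. *Cd300a* (chromosome 11, 114780867 to 114795480 on GRCm39) was at 163, 0.740, 127 and 1.06 TPM. Both knockout libraries were near 0 and both WT libraries were high, as their labels say, and the interaction of *Cd300a* itself was 0.61 (0.24 to 0.97). *Siglecf*, which encodes the sorting antigen, was at 354, 405, 11.3 and 15.3 TPM, high in both SiglecF hi libraries, with an interaction of 0.22 (−0.05 to 0.49). *Ly6g*, the other sorting antigen, was at 11.1, 41.9, 330.4 and 889 TPM, low in both SiglecF hi libraries and higher in the knockout of each subset, with an interaction of −0.40 (−0.72 to −0.07, centred −0.03). *Itgam*, which encodes CD11b, was at 337, 388, 367 and 550.4 TPM, and *Ptprc*, which encodes CD45, was at 646, 709.96, 608 and 683 TPM.

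The labelled cell type was checked against its markers. All 8 of 8 neutrophil markers were among the genes tested, with a summed level of 28047, 33071, 155491 and 203476 TPM and *S100a9* as the most abundant. All 11 of 11 macrophage markers were also among them, with a summed level of 17676, 16198, 6282 and 5426 TPM and *Apoe* as the most abundant, so RNA of macrophage markers was abundant in libraries labelled as neutrophils, above all in those of SiglecF hi cells, and whether it came from macrophages was not tested. The median interaction was 0.10 for the neutrophil markers and 0.11 for the macrophage markers (0.21 and 0.23 when centred on genes of like length), and none of either passed 1. Of 5 monocyte markers 4 were tested, with a median interaction of 0.12. In a sorted pool, fewer cells of a type and less RNA per cell cannot be told apart.

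The interaction was mainly a matter of the SiglecF lo subset. An interaction above 1 was found for 203 genes (3.11% of those tested) and below −1 for 408 genes (6.25%), 611 in all. In 567 of these 611 (92.8%) the knockout difference was larger in SiglecF lo than in SiglecF hi cells, and in 44 it was larger in SiglecF hi cells. The share over all genes tested was not computed, and the wider spread in SiglecF lo cells given below favours such a majority among genes chosen by their interaction. Taken alone, the knockout difference passed 1 upward in 219 and downward in 392 genes of the SiglecF lo subset, against 24 and 22 genes of the SiglecF hi subset, *Cd300a* included. The standard deviation over genes was 0.64 in SiglecF lo and 0.31 in SiglecF hi cells, where the median counting error (1 standard error) of a gene was 0.09 and 0.06. The median interaction of all genes tested was −0.05, with quartiles of −0.41 and 0.28, and its median counting error was 0.11. When the whole interval had to lie past the threshold, 90 genes above 1 and 177 below −1 were left. When every library had to be over 10 TPM, 69 above 1 and 168 below −1 were left, so most of these genes were at 10 TPM or less in at least 1 library.

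Depth and composition differed between the subsets in the same direction. The total counts were 19278243, 17632989, 9631901 and 10988619, so the SiglecF lo libraries were the shallower pair. *S100a8* and *S100a9*, which encode an abundant calcium-binding pair of neutrophils, took 2.41%, 2.78%, 13.8% and 17.3% of all TPM, and the 10 most abundant genes took 12.3%, 11.8%, 22.8% and 26.7%. At a common depth of 9631901 counts, 14818, 14268, 12931 and 12760 genes were detected. Among the genes tested, a level under 0.25 of the lowest other library was found for 26 in the SiglecF lo knockout library, for 12 and 3 in the WT libraries of SiglecF lo and SiglecF hi cells, and for 1 in the SiglecF hi knockout library. A level over 4 times the highest other library was found for 11 in the SiglecF lo knockout library. The WT SiglecF lo and SiglecF hi knockout libraries had 1 each, and the WT SiglecF hi library had 0. Interactions past 1 were more frequent among weakly expressed genes, at 17.0% of the 1993 genes with a mean of 10 to 20 TPM and 1.76% of the 511 genes over 300 TPM. The part of depth and composition in the interaction was not tested.

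Genes were then sorted by which subset moved. A gene counted as moving in SiglecF lo cells only when its knockout difference passed 0.5 there and stayed within 0.25 in SiglecF hi cells, with an interaction past 0.5 whose interval did not include 0, and the reverse rule gave the genes moving in SiglecF hi cells only. It counted as opposite when both differences passed 0.5 with opposite signs and the interval did not include 0. Higher in the knockout in SiglecF lo cells only were 488 genes (7.48%), and lower 714 (10.9%). Higher in SiglecF hi cells only were 37 genes (0.567%), and lower 39 (0.598%). In opposite directions, 26 genes (0.399%) were higher in SiglecF lo and lower in SiglecF hi knockout cells, and 44 (0.675%) were lower in SiglecF lo and higher in SiglecF hi knockout cells. Of these opposite genes 5 and 15 were left when every library had to be over 10 TPM, and 0 and 3 with a mean over 50 TPM. Counts of genes past 1 in the lists below stand beside 3.11% of all genes above 1 and 6.25% below −1. Counts above or below 0 stand beside 3003 of the 6523 genes above 0 and 3520 below 0.

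**Figure D1:**
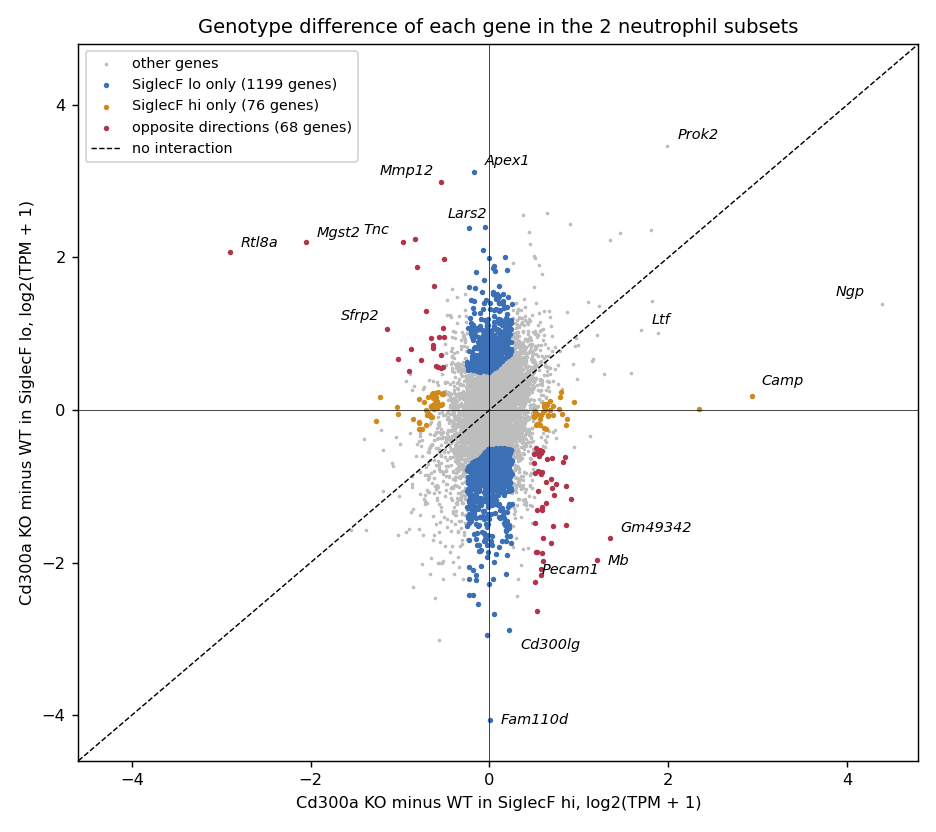
Knockout minus WT difference on log2(TPM + 1) of each gene in SiglecF hi (horizontal axis) and SiglecF lo neutrophils (vertical axis), without *Cd300a* and without genes at 3 counts or fewer in any library. The 1199 genes that moved in SiglecF lo cells only spread along the vertical axis, the 76 that moved in SiglecF hi cells only along the horizontal axis, and the 68 opposite genes lie off the dashed line of equal differences.

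Exon length went with the interaction. The length implied by the deposited counts and RPKM had a median of 3.45 kb over the genes tested, 4.49 kb for the genes higher in SiglecF lo knockout cells only and 2.22 kb for the genes lower there only. The median interaction was −0.42 in the 272 genes of up to 1 kb and 0.20 in the 1155 genes over 6 kb, and the groups between followed in order of length. In SiglecF lo cells the median knockout difference went from −0.53 to 0.28 over these length groups, and in SiglecF hi cells from −0.08 to 0.09. When each gene was centred on genes of like length, an alternative chosen after seeing the data, 251 genes lay above 1 and 276 below −1, and 182 of the 203 and 265 of the 408 genes were still past 1 in their direction. The counts of genes that moved in one subset only or in opposite directions were not repeated with this centring. Where a family's median is given below and this centring moved it beyond the counting error, the length-centred median is given as well, and the part of length or RNA integrity was not tested.

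**Figure D2:**
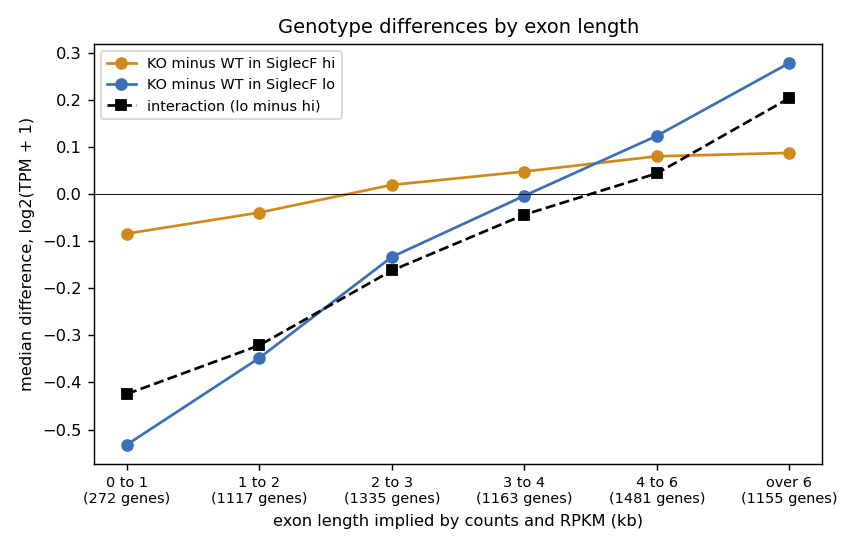
Median knockout minus WT difference in each subset and median interaction, on log2(TPM + 1), for genes grouped by exon length in kb. The SiglecF lo line climbs from −0.53 to 0.28 with length, and the SiglecF hi line only from −0.08 to 0.09.

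Among genes with more than 3 counts in every library, the 3 highest interactions belonged to genes that moved in opposite directions. *Rtl8a*, a retrotransposon Gag-like gene of the X chromosome, was at 26.4, 2.66, 2.44 and 13.4 TPM, an interaction of 4.97 (4.24 to 5.71). *Mgst2*, a microsomal glutathione transferase, was at 9.26, 1.48, 10.97 and 54.1 TPM, an interaction of 4.25 (3.37 to 5.13). For both genes knockout was lower than WT in SiglecF hi cells and higher in SiglecF lo cells, so the order of the genotypes was exchanged. Their lowest counts were few, 15 for *Rtl8a* in WT SiglecF lo and 7 for *Mgst2* in *Cd300a-/-* SiglecF hi cells. Another 3 of these genes encode secreted proteins. *Mmp12*, which encodes macrophage elastase, was at 68.5, 46.9, 1.09 and 15.6 TPM, an interaction of 3.52 (3.17 to 3.88). *Tnc*, which encodes the injury-induced matrix glycoprotein tenascin-C, was at 17.7, 8.55, 4.48 and 24.4 TPM, an interaction of 3.18 (2.94 to 3.41). *Sfrp2*, a secreted modulator of Wnt signals, was at 32.2, 14.05, 10.8 and 23.7 TPM, an interaction of 2.21 (1.84 to 2.57). All 3 were highest in WT among SiglecF hi cells and highest in the knockout among SiglecF lo cells. *Ch25h*, which encodes cholesterol 25-hydroxylase, was at 21.6, 13.7, 7.58 and 25.4 TPM, an interaction of 2.25 (1.77 to 2.72).

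Other genes of this direction had varied roles. *Psmg3*, a chaperone of proteasome assembly, was at 14.2, 7.64, 3.53 and 15.6 TPM, an interaction of 2.69 (1.93 to 3.45). *Mterf3*, which acts on mitochondrial transcription, was at 21.6, 12.8, 8.48 and 22.4 TPM, an interaction of 2.02 (1.64 to 2.39). *Ccdc126* and *Smim26*, whose functions are little known, had interactions of 2.49 (2.08 to 2.90) and 3.09 (1.99 to 4.18). *Smim26* had only 4 counts in WT SiglecF lo cells. *Nr2c2ap* was at 33.7, 17.8, 4.44 and 8.49 TPM, an interaction of 1.68 (1.07 to 2.30). In each of these genes the WT SiglecF lo library was the lowest of the 4.

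The reverse exchange, lower in SiglecF lo and higher in SiglecF hi knockout cells, was found in 44 genes. *Mb*, which encodes the oxygen-binding myoglobin of muscle, was at 12.98, 31.2, 7.96 and 1.30 TPM, an interaction of −3.17 (−3.80 to −2.54). *Ctla2a*, an inhibitor of cysteine proteases, was at 15.3, 22.6, 26.2 and 3.37 TPM, an interaction of −3.17 (−3.70 to −2.64). *Rrad*, a Ras-related GTPase, was at 22.2, 41.01, 43.1 and 14.5 TPM, an interaction of −2.36 (−2.70 to −2.02). In these 3 genes *Cd300a-/-* SiglecF lo was the lowest library, with 11, 27 and 130 counts, and *Cd300a-/-* SiglecF hi lay above its WT. *Scimp*, a transmembrane adaptor of antigen-presenting and myeloid cells, was at 91.2, 149.6, 32.8 and 10.8 TPM, an interaction of −2.23 (−2.63 to −1.83). *Bcam*, a laminin-binding adhesion molecule, was at 11.7, 20.4, 54.01 and 27.2 TPM, an interaction of −1.71 (−1.98 to −1.45). *Kap*, the kidney androgen-regulated protein, was at 11.3, 22.1, 83.96 and 36.9 TPM, an interaction of −2.08 (−2.56 to −1.60). These 3 differed in which subset had more, with *Scimp* higher in SiglecF hi and *Bcam* and *Kap* higher in SiglecF lo cells.

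Nuclear genes with general functions were also in this group. *Gtf2f2*, a subunit of the general transcription factor TFIIF, was at 30.99, 51.6, 36.5 and 16.4 TPM, an interaction of −1.83 (−2.16 to −1.50). *Gar1*, a protein of box H/ACA ribonucleoproteins, was at 10.9, 15.9, 12.5 and 1.83 TPM, an interaction of −2.77 (−3.41 to −2.13). *Rpain*, which carries replication protein A into the nucleus, was at 9.26, 14.3, 15.8 and 2.76 TPM, an interaction of −2.74 (−3.35 to −2.13). All 3 had their lowest level in *Cd300a-/-* SiglecF lo cells. *Cutc*, named for copper homeostasis, had an interaction of −2.66 (−3.22 to −2.10). *Gm49342*, a predicted gene, was at 39.7, 102, 99.1 and 30.3 TPM, an interaction of −3.02 (−3.37 to −2.67, centred −2.60), and its counts are uncertain if reads also match a like sequence elsewhere.

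Among genes higher in the knockout in SiglecF lo cells only, several were nearly absent from the WT SiglecF lo library. *Apex1*, an endonuclease of base excision repair, was at 27.7, 24.4, 0.547 and 12.4 TPM, an interaction of 3.29 (2.68 to 3.90). *Snx24*, a sorting nexin, was at 16.1, 15.5, 0.788 and 8.48 TPM, an interaction of 2.45 (1.89 to 3.02). *Smagp*, a small adhesion glycoprotein, was at 22.96, 21.7, 2.79 and 15.3 TPM, an interaction of 2.18 (1.62 to 2.74). For these 3 genes the WT SiglecF lo library was by far the lowest, with 4, 8 and 21 counts. The *Cd300a-/-* SiglecF lo library lay nearer to the SiglecF hi libraries. *Hnrnph3*, which acts in splicing, was at 13.99, 13.97, 2.32 and 12.2 TPM, an interaction of 1.99 (1.55 to 2.43). *Nsmaf*, which links the tumor necrosis factor receptor to neutral sphingomyelinase, was at 17.8, 18.5, 2.11 and 10.5 TPM, an interaction of 1.84 (1.44 to 2.23). *Blnk*, an adaptor of immunoreceptor signals, was at 58.04, 59.7, 7.05 and 28.2 TPM, an interaction of 1.82 (1.47 to 2.16). In these, too, WT SiglecF lo was the lowest library.

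A different shape, with *Cd300a-/-* SiglecF lo as the highest library, was seen in *Lars2* and *Lipg*. *Lars2*, the mitochondrial leucyl-tRNA synthetase, was at 57.02, 48.6, 66.4 and 350.04 TPM, an interaction of 2.61 (2.49 to 2.72). *Lipg*, which encodes endothelial lipase, was at 5.09, 5.88, 8.99 and 39.1 TPM, an interaction of 1.83 (1.49 to 2.16). Both were more than 4 times as high in *Cd300a-/-* SiglecF lo as in any other library. *Lars2* holds sequence that resembles mitochondrial 16S ribosomal RNA, so its count is uncertain.

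Genes lower in the knockout in SiglecF lo cells only included the lowest interaction among genes with more than 3 counts in every library. *Fam110d* was at 6.51, 6.54, 37.5 and 1.30 TPM, an interaction of −4.07 (−4.78 to −3.37). *Cd300lg*, a CD300 family member known from vascular endothelium, was at 12.9, 15.3, 15.5 and 1.22 TPM, an interaction of −3.11 (−3.56 to −2.66). *F7*, which encodes coagulation factor VII, was at 26.4, 23.1, 12.6 and 1.52 TPM, an interaction of −2.24 (−2.77 to −1.71). In these 3 the *Cd300a-/-* SiglecF lo library was the lowest, with 9, 19 and 16 counts, and only *Fam110d* was highest in WT SiglecF lo cells by a wide margin. Another 2 of these genes act in mitochondrial translation, of which other genes, such as *Lars2* above, went the other way. *Rars2*, the mitochondrial arginyl-tRNA synthetase, was at 17.6, 14.8, 11.5 and 1.32 TPM, an interaction of −2.19 (−2.74 to −1.64). *Mrps7*, a protein of the small mitochondrial ribosomal subunit, was at 32.2, 32.2, 15.3 and 2.34 TPM, an interaction of −2.28 (−2.76 to −1.81). Both differed little between the SiglecF hi libraries and were lowest in *Cd300a-/-* SiglecF lo cells. *A430005L14Rik* had an interaction of −2.73 (−3.29 to −2.16). *Zc3h11a_1*, of which the files hold a second entry, and *Csta3*, which has near-identical stefin relatives, had interactions of −2.92 (−3.25 to −2.59) and −2.42 (−3.67 to −1.17), and both are uncertain for that reason.

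In *Camp* and *Ngp*, which encode granule proteins, the larger difference was the one in SiglecF hi cells. *Camp*, the cathelicidin antimicrobial peptide, was at 4.96, 44.8, 298 and 339 TPM, a difference of 2.94 for SiglecF hi and 0.19 for SiglecF lo cells and an interaction of −2.76 (−3.21 to −2.30). *Ngp*, the neutrophilic granule protein, was at 12.96, 293, 1177 and 3096 TPM, an interaction of −3.002 (−3.23 to −2.77, centred −2.63). Both were lowest by far in WT SiglecF hi cells, and *Ngp* was higher in the knockout of both subsets. Over all 20 of 20 genes of secondary and tertiary granules the median interaction was 0.28, or 0.42 with length centring, with 1 above 1 and 3 below −1, beside −0.05 for all genes. *Lyz2*, the most abundant of the list, had an interaction of 0.08 (0.05 to 0.10, centred 0.41). None of the 7 genes of primary granules reached the level for testing.

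The genes named next were higher in SiglecF hi knockout cells only and were at low levels. In this class 3 genes had a mean over 50 TPM. *Cib2*, a calcium- and integrin-binding protein, was at 7.71, 15.7, 31.4 and 33.9 TPM, an interaction of −0.83 (−1.24 to −0.43). *Traf3ip3* was at 8.84, 16.8, 10.1 and 8.75 TPM, an interaction of −1.04 (−1.42 to −0.67, centred −0.99). *Lyve1*, a hyaluronan receptor of lymphatic vessels and resident macrophages, was at 9.41, 17.2, 13.99 and 16.6 TPM, an interaction of −0.57 (−0.90 to −0.25). In each the WT SiglecF hi library was the lowest or nearly so. *Haghl*, *Tgtp2* and *Fbxo4* had interactions of −0.99, −0.87 and −0.62. *Rpl9-ps6*, a ribosomal pseudogene with near-identical copies, had −2.33 (−3.36 to −1.30) and is uncertain.

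Genes lower in SiglecF hi knockout cells only had varied roles, and 3 of the 7 fibroblast markers tested were among them, beside 0.598% of all genes. *Gpx7*, a peroxidase of the endoplasmic reticulum, was at 22.9, 8.89, 8.91 and 7.94 TPM, an interaction of 1.12 (0.56 to 1.69). *Lox*, lysyl oxidase, which cross-links collagen, was at 21.7, 12.1, 10.4 and 11.7 TPM, an interaction of 0.94 (0.67 to 1.20). *Fdps*, which makes farnesyl diphosphate, was at 21.1, 11.2, 15.9 and 14.5 TPM, an interaction of 0.73 (0.33 to 1.13). In all 3 the WT SiglecF hi library was the highest and the knockout brought SiglecF hi cells to about the level of SiglecF lo cells or below it. *Eva1b* was at 20.2, 8.06, 6.01 and 6.90 TPM, an interaction of 1.40 (0.90 to 1.90). *Acyp1*, an acylphosphatase, was at 13.4, 5.996, 11.1 and 11.5 TPM, an interaction of 1.08 (0.54 to 1.62). *Tmem223*, *Ccnb2*, which encodes cyclin B2, and *Wdr45*, which acts in autophagy, had interactions of 0.97 (centred 1.39), 0.63 and 0.54.

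Inhibitory and paired receptors came next, as the family of the deleted gene. Of 13 CD300 family genes 9 were tested, *Cd300a* included, with 1 above 1 (*Cd300ld5*, at 3 counts or fewer in a library), 1 below −1 (*Cd300lg*) and a median of 0.15. *Cd300lf*, an inhibitory member, was at 328, 385, 394 and 577 TPM, an interaction of 0.32 (0.24 to 0.40, centred 0.55). *Cd300lb*, an activating member, was at 98.9, 97.03, 156 and 169.9 TPM, an interaction of 0.15 (0.03 to 0.26). *Cd300c2* was at 462, 432, 317 and 249 TPM, an interaction of −0.25 (−0.36 to −0.14, centred 0.08). *Cd300lf* was thus highest in *Cd300a-/-* SiglecF lo cells, and *Cd300c2* lowest there. *Cd300ld* and *Cd300ld3* had interactions of −0.66 (centred −0.55) and 0.43 (centred 0.84), but the *Cd300ld* genes are near-identical neighbours and their shares of the reads are uncertain. *Cd300e* had −0.06 (centred 0.13).

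Siglecs and the enzymes that inhibitory receptors recruit were examined next. Of 8 Siglec genes 4 were tested, none past 1, with a median of 0.35. *Siglec1*, a macrophage sialoadhesin, was at 43.6, 36.3, 9.21 and 14.5 TPM, an interaction of 0.86 (0.66 to 1.05, centred 0.65). *Cd33* was at 121, 140.03, 145 and 234 TPM, an interaction of 0.47 (0.40 to 0.54, centred 0.36), and *Siglece*, the most abundant, had −0.08 (−0.18 to 0.03, centred 0.16). Of the 17 genes tested for phosphatases and kinases next to such receptors none passed 1, and the median was 0.03. *Tyrobp*, which encodes the activating adaptor DAP12, had −0.22 (−0.26 to −0.18, centred 0.20), and *Ptpn22*, a lymphoid phosphatase, had −0.68 (−0.91 to −0.45). Of 15 paired immunoglobulin-like receptors tested the median was 0.07, or 0.22 with length centring, with *Lilr4b* as the most abundant at 0.32 (centred 0.56) and *Sirpb1b* at −0.55 (centred −0.31). For phosphatidylserine receptors and other genes of efferocytosis, the uptake of dying cells, 18 were tested, none passed 1, and the median was 0.13. Within it *Stab1*, a scavenger receptor that binds phosphatidylserine, was at 226, 215, 41.9 and 79.3 TPM, an interaction of 0.97 (0.88 to 1.06, centred 0.69), and *Mfge8*, a bridging protein, was at 56.7, 63.7, 52.5 and 32.4 TPM, an interaction of −0.84 (−1.06 to −0.62).

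Genes induced by type I interferon leaned lower in SiglecF lo knockout cells and not in SiglecF hi knockout cells. Of 48 interferon-stimulated genes 43 were tested, and 9 lay below −1 and 0 above 1, beside 6.25% and 3.11% of all genes, and 5 of the 9 stayed below −1 with length centring. Their median knockout difference was −0.37 in SiglecF lo and 0.19 in SiglecF hi cells, and their median interaction was −0.55, or −0.43 when centred on genes of like length. Below 0 were 35 of the 43. *Ifit1*, which binds foreign RNA caps, was at 124, 143, 221 and 79.8 TPM, an interaction of −1.65 (−1.77 to −1.53). *Ifit2*, its relative, was at 45.2, 66.5, 41.3 and 19.4 TPM, an interaction of −1.60 (−1.79 to −1.42). *Cxcl10*, a chemokine for T cells, was at 220.3, 262, 158 and 66.97 TPM, an interaction of −1.47 (−1.63 to −1.32, centred −1.23). In all 3 genes *Cd300a-/-* SiglecF lo was the lowest library and *Cd300a-/-* SiglecF hi lay above WT SiglecF hi. The other 6 genes below −1, chosen after their values were seen, were *Ifit3b*, *Ifit3*, *Bst2*, *Ifi209*, *Ifit1bl1* and *Isg15*, of which *Ifit1bl1* has near-identical relatives. *Isg15*, a ubiquitin-like modifier, was at 466, 482, 1016 and 518 TPM, an interaction of −1.02 (−1.13 to −0.91, centred −0.60). *Slfn4*, the most abundant gene of the list, was at 592, 929.99, 822 and 1440.3 TPM and went the other way in SiglecF lo cells, with an interaction of 0.16 (0.12 to 0.19, centred 0.09).

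Promoters of these genes were searched for the core of the interferon-stimulated response element, GAAANNGAA, to which interferon-activated factors bind, on both strands. Windows of 300 bases from 250 before to 50 after the start were available from RefSeq (GRCm38.p6, not the build of the files) for 34 of the 43 tested genes, and 19 of these 34 (55.9%) held the core, against 9.76% of all genes with a promoter and 9.22% of the tested genes. It was present for 7 of the 9 interferon-stimulated genes below −1, and for 8.58% of the other genes below −1 with a promoter. Within the list, the median interaction was −0.56 for the 19 genes with the core and −0.56 for the 15 without it, 17 and 11 of them were below 0, and 7 and 2 were below −1. A match describes letters and is not a binding site. Printed 5′ to 3′ on the strand of the gene, with matches in capitals, are 3 promoters of genes below −1 that show where the core lies, *Ifit1* (chr19:34640639-34640938, plus strand), *Isg15* (chr4:156200769-156201068, minus strand) and *Cxcl10* (chr5:92348840-92349139, minus strand), all on GRCm38.p6.
Ifit1: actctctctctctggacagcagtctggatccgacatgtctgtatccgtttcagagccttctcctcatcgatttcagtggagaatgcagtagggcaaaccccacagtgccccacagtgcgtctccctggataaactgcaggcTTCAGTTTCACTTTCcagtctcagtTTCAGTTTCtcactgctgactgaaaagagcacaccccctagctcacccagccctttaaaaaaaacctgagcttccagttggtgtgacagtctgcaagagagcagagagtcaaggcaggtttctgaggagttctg
Isg15: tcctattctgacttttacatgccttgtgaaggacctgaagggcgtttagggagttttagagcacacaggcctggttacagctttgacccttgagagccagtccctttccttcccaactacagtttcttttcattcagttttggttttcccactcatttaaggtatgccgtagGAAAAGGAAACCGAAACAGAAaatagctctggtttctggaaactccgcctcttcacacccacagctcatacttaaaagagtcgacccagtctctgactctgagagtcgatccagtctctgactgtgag
Cxcl10: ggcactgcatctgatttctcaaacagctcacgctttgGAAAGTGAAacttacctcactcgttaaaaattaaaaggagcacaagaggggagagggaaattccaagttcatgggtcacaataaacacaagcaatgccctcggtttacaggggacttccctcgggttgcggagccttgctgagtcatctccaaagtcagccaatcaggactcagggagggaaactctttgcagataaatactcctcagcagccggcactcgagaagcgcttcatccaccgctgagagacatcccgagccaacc

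Neighbouring interferon families did not all move with that list. Of 12 interferon-inducible GTPases tested 1 was above 1 (*Gvin2*, at 3 counts or fewer in a library) and 1 below −1, and the median interaction was −0.33, with *Gbp2*, the most abundant, at 89.7, 94.6, 131 and 85.8 TPM and an interaction of −0.68 (−0.82 to −0.54), and *Igtp* at −0.98. The 4 interferon-induced transmembrane genes tested, whose products block viral entry, had a median of 0.43, or 0.82 with length centring and 0.37 with a mean TPM over 1. *Ifitm6* was at 97.96, 271, 553 and 2771 TPM, an interaction of 0.87 (0.73 to 1.00, centred 1.28), and *Ifitm1* was at 764, 804, 2021 and 3477 TPM, an interaction of 0.71 (0.65 to 0.77, centred 1.08). Both were highest in *Cd300a-/-* SiglecF lo cells, while *Ifitm3* had −0.27 (−0.33 to −0.22, centred 0.15) and *Ifitm2*, the most abundant, 0.15 (0.11 to 0.20, centred 0.57). The Schlafen family had 5 genes tested and a median of −0.16, which turned to 0.08 with length centring and to 0.14 with a mean TPM over 1.

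MHC class I genes leaned lower in SiglecF lo knockout cells. All 18 of 18 genes tested had an interaction below 0, 2 of them below −1 (0 with length centring), with a median of −0.39, or −0.19 with length centring. *B2m*, the light chain and the most abundant gene, was at 7629, 7497, 7295 and 4603 TPM, an interaction of −0.64 (−0.67 to −0.61, centred −0.22). *Psmb9* and *Psmb10* encode catalytic subunits of the immunoproteasome. *Psmb9* was at 67.7, 55.9, 98.6 and 34.8 TPM, an interaction of −1.21 (−1.42 to −0.99, centred −0.97). *Psmb10* was at 160.5, 172, 102 and 51.5 TPM, an interaction of −1.07 (−1.27 to −0.87, centred −0.74), and *Psme2*, a subunit of its activator, had −0.93 (−1.07 to −0.78, centred −0.55). In each the *Cd300a-/-* SiglecF lo library was the lowest of the 4. The 6 MHC class II genes tested had a median of 0.00, or 0.35 with length centring, and *Cd74*, the most abundant, had 0.00 (−0.05 to 0.06, centred 0.33).

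**Figure D3:**
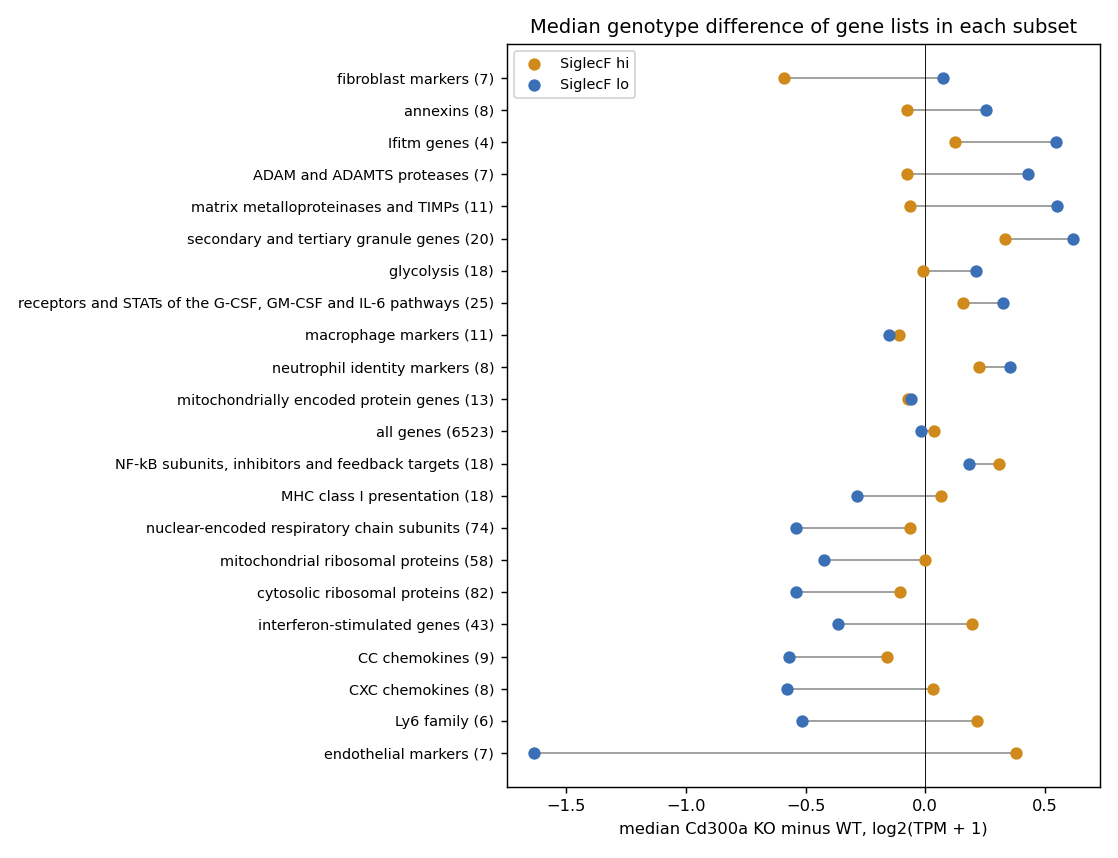
Median knockout minus WT difference on log2(TPM + 1) of selected gene lists in SiglecF hi (orange) and SiglecF lo cells (blue), with the number of genes tested in parentheses and lists ordered by median interaction. Endothelial markers (−1.64 in SiglecF lo, 0.38 in SiglecF hi) lie farthest down, interferon-stimulated genes, chemokines and ribosomal proteins below all genes, and annexins and fibroblast markers above.

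Chemokines leaned lower in SiglecF lo knockout cells. Of 9 CC chemokines tested 8 had an interaction below 0, the median was −0.56, and it was −0.14 with length centring, where the median length was 0.870 kb, and −0.20 with a mean TPM over 1. *Ccl3*, the most abundant, was at 3561, 3988, 1451 and 969.8 TPM, an interaction of −0.74 (−0.81 to −0.68, centred −0.33). *Ccl4* was at 1547, 1849, 786 and 528 TPM, an interaction of −0.83 (−0.92 to −0.73, centred −0.41). *Ccl5* was at 12.2, 22.97, 17.6 and 8.29 TPM, opposite in the subsets, with an interaction of −1.86 (−2.63 to −1.08). *Ccl8*, a ligand made by macrophages, had −0.74 (−0.99 to −0.49, centred −0.32). Of the 8 CXC chemokines tested all 8 were below 0, 2 of them below −1, with a median of −0.58, or −0.28 with length centring. *Cxcl2*, a neutrophil attractant and the most abundant, was at 4829, 5222, 2801 and 2121 TPM, an interaction of −0.51 (−0.54 to −0.48, centred −0.28). *Cxcl5* was at 30.8, 19.9, 26.8 and 4.03 TPM, an interaction of −1.86 (−2.33 to −1.39), and *Cxcl1* was at 552, 372, 330.03 and 140.3 TPM, an interaction of −0.66 (−0.80 to −0.52, centred −0.29). All 3 of these attractants were lowest in *Cd300a-/-* SiglecF lo cells, and for *Cxcl1* and *Cxcl5* the knockout was lower in both subsets. Among 15 chemoattractant receptors tested none passed 1. *Cxcr4*, the most abundant, had −0.47 (−0.51 to −0.43, centred −0.23), and *Ccrl2*, a chemerin-binding receptor, was at 1646, 1948, 751 and 476 TPM, an interaction of −0.90 (−0.95 to −0.85, centred −0.79).

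Inflammatory cytokines that the study names differed in how far the subsets parted. *Il6* was at 45.6, 33.2, 56.8 and 14.97 TPM, an interaction of −1.41 (−1.67 to −1.16). *Il1b* was at 9987, 12137, 9239 and 6637 TPM, an interaction of −0.76 (−0.78 to −0.74, centred −0.43). *Tnf* was at 1309, 1637, 333 and 327 TPM, an interaction of −0.35 (−0.43 to −0.27, centred −0.10). *Il6* was lower in the knockout of both subsets and most of all in SiglecF lo, *Il1b* was higher in SiglecF hi and lower in SiglecF lo knockout cells, and *Tnf* was higher in SiglecF hi knockout cells with little difference in SiglecF lo cells. *Il10*, an anti-inflammatory cytokine, was at 25.1, 18.7, 4.01 and 9.29 TPM, an interaction of 1.44 (0.86 to 2.03). Of 15 genes of the IL-1 family and inflammasome tested the median was −0.19, or −0.07 with length centring. *Il18* was at 23.98, 17.5, 13.8 and 21.4 TPM, an interaction of 1.03 (0.54 to 1.52), *Aim2*, a DNA sensor, had −0.63 (−0.86 to −0.39), and *Casp1*, which cleaves IL-1β, had 0.59 (0.37 to 0.82, centred 0.84). *Il1rn*, chosen after its value was seen, encodes the IL-1 receptor antagonist, was at 833, 1209, 621 and 601 TPM, and differed in SiglecF hi cells only, with an interaction of −0.58 (−0.63 to −0.53, centred −0.47).

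Genes of transcription factors, with some of their inhibitors and targets, were examined next. Of 18 NF-κB genes tested 12 were below 0, where 3520 of all 6523 genes were. None of the 18 passed 1, and the median was −0.18. Their median knockout difference was above 0 in both subsets, 0.18 for SiglecF lo and 0.31 for SiglecF hi cells. *Nfkbia*, the inhibitor induced by NF-κB itself and the most abundant, was at 3209.8, 3558, 1965 and 1361 TPM, an interaction of −0.68 (−0.72 to −0.64, centred −0.44), and *Traf1*, a target in survival signals, was at 39.4, 60.7, 23.8 and 20.1 TPM, an interaction of −0.85 (−1.05 to −0.65). The first moved in SiglecF lo cells only and the second in SiglecF hi cells only. Of 26 AP-1 and immediate early genes tested 22 were below 0, with a median of −0.17, or −0.10 without the 10 highest genes. *Fosl1*, against most of its list, was at 9.72, 8.88, 23.7 and 51.2 TPM, an interaction of 1.20 (0.83 to 1.57), while *Junb*, the most abundant, had −0.34 (−0.37 to −0.30, centred −0.10), *Nr4a2* −0.59 (−0.72 to −0.45) and *Ier3* −0.56 (−0.64 to −0.48, centred −0.19). Among myeloid transcription factors, *Id3* was at 88.8, 78.8, 164 and 52.5 TPM, an interaction of −1.45 (−1.67 to −1.24, centred −1.12), and *Id1* was at 77.8, 85.1, 162 and 76.7 TPM, an interaction of −1.20 (−1.40 to −0.99, centred −0.83). Both encode inhibitors of helix-loop-helix factors and were lowest in *Cd300a-/-* SiglecF lo cells. The endothelial markers in sum were lowest there too, and their part in the values of *Id1* and *Id3* was not tested. *Cebpb*, the most abundant there, had −0.11 (−0.14 to −0.08, centred 0.13), and *Ets1* had −0.87 (−1.12 to −0.62).

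Receptors and STATs of the G-CSF, GM-CSF and IL-6 pathways leaned the other way, with a small size. Of 25 tested 20 were above 0 and none passed 1, the median was 0.19, and with length centring it was 0.09. *Csf3r*, the G-CSF receptor, was at 1069, 1109, 1443 and 1749.6 TPM, an interaction of 0.23 (0.19 to 0.26). *Stat3* was at 117, 146, 102 and 145 TPM, an interaction of 0.19 (0.11 to 0.27, centred 0.07). *Stat4* was at 13.3, 14.9, 23.4 and 41.6 TPM, an interaction of 0.65 (0.39 to 0.91). These 3 were highest in *Cd300a-/-* SiglecF lo cells or, for *Stat3*, equally high in both knockouts. *Stat2*, which carries interferon signals, leaned down with the interferon-stimulated genes. It was at 24.1, 30.5, 25.1 and 16.4 TPM, an interaction of −0.91 (−1.13 to −0.70). Of 4 feedback genes of the SOCS and PIM families tested none passed 1, and *Pim3* came nearest at 31.4, 52.7, 29.03 and 24.1 TPM, an interaction of −0.99 (−1.24 to −0.74).

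Receptors for microbes and antibodies showed members at both ends. Of 16 Toll-like receptor genes tested 2 were above 1 and 1 below −1, with a median of 0.03. *Tlr8*, a sensor of RNA, was at 39.3, 35.7, 15.97 and 34.7 TPM, an interaction of 1.21 (0.99 to 1.43). *Irak3*, an inhibitor of the pathway, was at 58.5, 60.4, 36.4 and 82.2 TPM, an interaction of 1.11 (0.94 to 1.27). *Ly96*, the MD-2 subunit that binds endotoxin with TLR4, was at 31.01, 35.7, 60.97 and 20.1 TPM, an interaction of −1.75 (−2.23 to −1.27). The first 2 were lowest in WT SiglecF lo cells, and *Ly96* was highest there, and all 3 moved in SiglecF lo cells only. *Cd14*, the most abundant of the list, had −0.14 (−0.17 to −0.11, centred 0.11). Of 12 C-type lectin receptors tested 9 were below 0, none passed 1 and the median was −0.37, or −0.22 with length centring, with *Clec4a3* at −0.76 (centred −0.43), *Clec4a1* at −0.65 (centred −0.41), *Clec4n* at −0.63 (centred −0.30) and *Clec4d*, the most abundant, at −0.11 (centred 0.22). The 6 Fcγ receptor genes tested had none past 1 and a median of −0.18, or 0.00 with length centring, and *Fcgr1*, the high-affinity receptor, was at 176, 142, 167 and 71.1 TPM, an interaction of −0.92 (−1.04 to −0.79).

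Ly6 surface antigens had a median interaction of −0.85 over 6 genes tested, with 3 below −1 (1 of them with length centring), and a median of −0.60 with length centring and −0.61 with a mean TPM over 1. *Ly6c1* was at 60.8, 73.6, 100.04 and 40.3 TPM, an interaction of −1.56 (−1.78 to −1.35, centred −1.32). *Ly6a*, which encodes Sca-1, was at 201, 186, 242 and 90.6 TPM, an interaction of −1.30 (−1.46 to −1.14, centred −0.93). *Ly6i* was at 31.2, 44.5, 38.6 and 25.5 TPM, an interaction of −1.08 (−1.43 to −0.73, centred −0.71). All 3 were lowest in *Cd300a-/-* SiglecF lo cells, as were the endothelial markers in sum (347, 456, 594 and 179 TPM), whose part in the Ly6 values was not tested. *Ly6e*, the most abundant, had −0.61 (−0.66 to −0.57, centred −0.49), and *Ly6c2*, a monocyte antigen, had 0.16 (0.04 to 0.27, centred 0.57). Of 9 Ms4a genes tested 2 were below −1, which were *Ms4a8a* at 22.6, 15.4, 35.6 and 6.85 TPM with −1.70 (−2.22 to −1.18), and *Ms4a4c* with −1.02 (−1.19 to −0.85, centred −0.79).

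Effector genes for tissue remodelling leaned to higher values in SiglecF lo knockout cells. Of 11 matrix metalloproteinases and their inhibitors tested 9 were above 0, with a median of 0.31, and *Mmp12* was the only one past 1. *Mmp9*, gelatinase B and the most abundant, was at 1297, 1684, 1440.2 and 2257 TPM, an interaction of 0.27 (0.24 to 0.30). *Mmp25*, a membrane-anchored enzyme of neutrophils, was at 14.9, 21.7, 33.1 and 88.9 TPM, an interaction of 0.88 (0.71 to 1.05). *Mmp2*, gelatinase A, was at 64.1, 61.3, 14.9 and 27.3 TPM, an interaction of 0.90 (0.66 to 1.13). *Mmp9* and *Mmp25* were highest in *Cd300a-/-* SiglecF lo cells and higher in the knockout of both subsets, whereas *Mmp2* differed in SiglecF lo cells only. Of 7 ADAM and ADAMTS proteases tested the median was 0.43, or 0.19 with a mean TPM over 1. *Adam8*, a sheddase of granulocytes and the most abundant, was at 287, 240.04, 474 and 842 TPM, an interaction of 1.08 (1.02 to 1.14), *Adam19* had 0.95 (0.78 to 1.12) and *Adam15* 0.70 (0.57 to 0.83).

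Annexins, calcium-dependent phospholipid-binding proteins, had 7 of 8 genes above 0 and a median of 0.49. *Anxa1*, which limits neutrophil recruitment, was at 426, 452, 826 and 1452 TPM, an interaction of 0.73 (0.67 to 0.79, centred 0.92). *Anxa4* had 0.86 (0.65 to 1.07), *Anxa7* 0.79 (0.61 to 0.98) and *Anxa2*, the most abundant, 0.14 (0.10 to 0.19, centred 0.38). Of 11 angiogenic factors tested 9 were above 0, with a median of 0.28, but with a mean TPM over 1 it was 0.01 and the lean was gone. *Prok2*, a secreted angiogenic factor, was at 3.33, 16.1, 19.2 and 222 TPM, an interaction of 1.48 (1.09 to 1.87). *Chil1*, a chitinase-like protein, was at 63.4, 79.00, 341 and 543 TPM, an interaction of 0.36 (0.23 to 0.48, centred 0.52). *Thbs1*, thrombospondin 1 and the most abundant of the list, was at 885, 994, 785 and 1183 TPM, an interaction of 0.42 (0.39 to 0.45, centred 0.31). All 3 were higher in the knockout of both subsets, by more in SiglecF lo cells. *Hbegf*, a ligand of the epidermal growth factor receptor, was at 9.45, 14.4, 12.2 and 7.73 TPM, opposite in the subsets, with −1.15 (−1.56 to −0.75). Of 12 TGF-β genes tested 2 were above 1 and 1 below −1, with a median of 0.21, or 0.02 with length centring. *Tgfb1* was at 200.3, 205, 133 and 128 TPM, an interaction of −0.09 (−0.20 to 0.02, centred 0.04). *Acvrl1*, the receptor ALK1, was at 26.7, 25.9, 31.98 and 88.98 TPM, an interaction of 1.49 (1.31 to 1.67), and *Eng*, its co-receptor endoglin, was at 42.3, 45.8, 48.9 and 24.4 TPM, an interaction of −1.09 (−1.27 to −0.90). These 2 partners moved in opposite directions in SiglecF lo cells. *Ltbp3*, which stores latent TGF-β, had 1.14 (0.86 to 1.43).

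**Figure D4:**
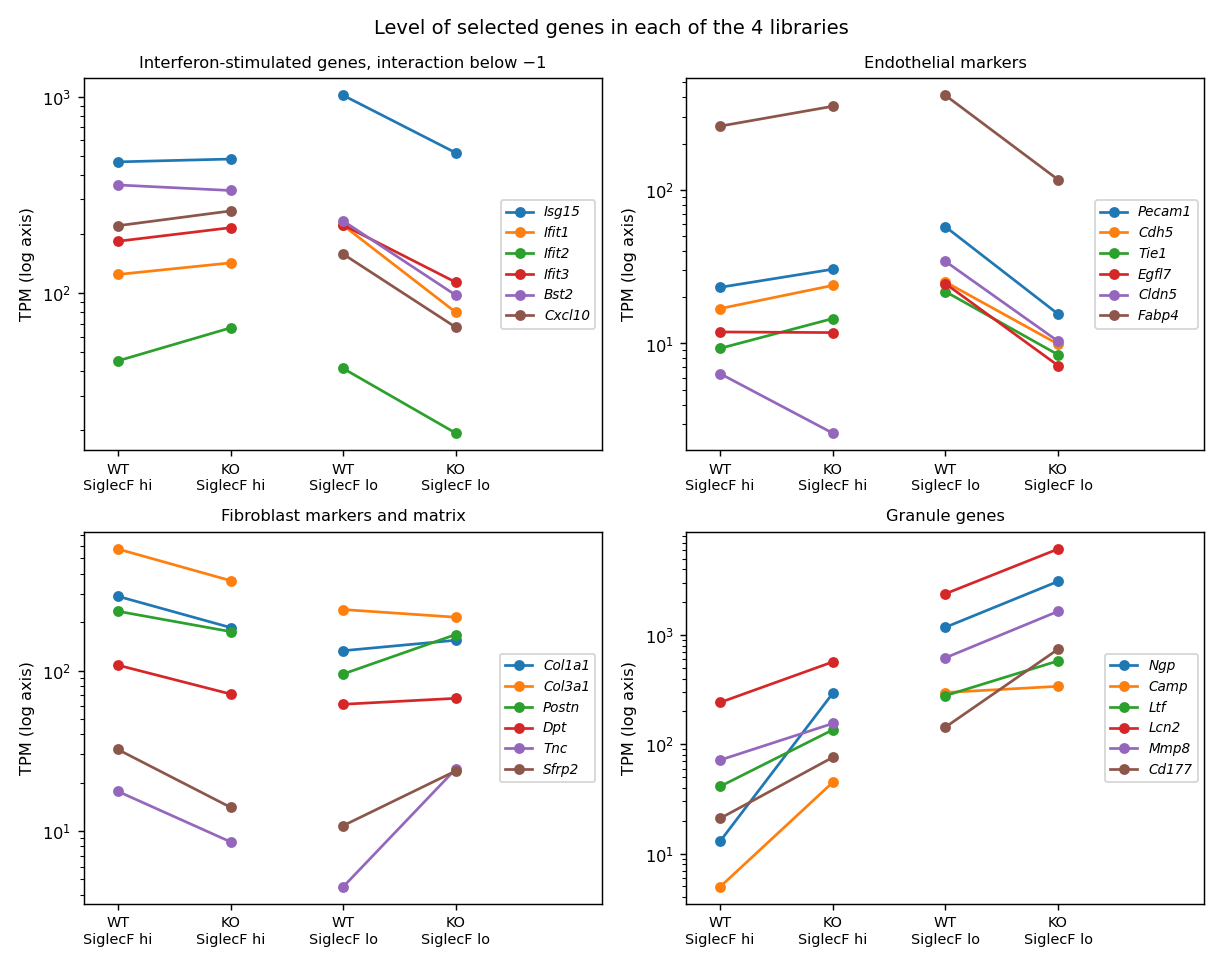
TPM on a log axis of selected genes in each of the 4 libraries, chosen after their values were seen, with a line joining WT and knockout of a subset. Interferon-stimulated genes and endothelial markers drop from WT to knockout in SiglecF lo cells, with *Pecam1* from 57.5 to 15.6 TPM, and *Ngp* and *Camp* climb from WT to knockout in SiglecF hi cells.

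Small cytosolic proteins of neutrophils were mixed. The S100 genes had 9 tested and a median of −0.08, which became 0.34 with length centring and −0.48 without the 10 highest genes. *S100a9* was at 13719, 15355, 76228 and 89228 TPM, an interaction of 0.06 (0.05 to 0.08, centred 0.48). *S100a16* had −1.07 (−1.50 to −0.63, centred −0.83), *S100a4* −0.66 (−0.81 to −0.51, centred −0.24) and *S100a10* −0.65 (−0.81 to −0.49, centred −0.23). Stefin A genes, inhibitors of cysteine proteases, had 3 of 6 tested above 1, and *Csta3*, a neighbour that was not on the list, lay below −1. *Cstdc5* was at 13.6, 12.1, 69.6 and 247 TPM, an interaction of 1.96 (1.49 to 2.43), while *Stfa2l1*, the most abundant, had −0.27 (−0.37 to −0.17, centred 0.15), but these genes are near-identical and the split of reads among them is uncertain. Of 5 cathelicidin-like and whey acidic proteins tested the median was −0.14, or 0.28 with length centring. *Wfdc17*, the most abundant there, was at 1463, 1383, 2937 and 5002 TPM, an interaction of 0.85 (0.79 to 0.91, centred 1.27). Galectins had a median of −0.10 over 5 genes, which turned to 0.14 with length centring and to 0.06 with a mean TPM over 1, and *Lgals3*, the most abundant, had 0.37 (0.32 to 0.43, centred 0.61).

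Genes of energy metabolism were examined by compartment. Of 18 genes of glycolysis tested 16 were above 0 and none passed 1, with a median of 0.19, or 0.27 with length centring. *Pkm*, pyruvate kinase and the most abundant, was at 951, 944, 1167 and 1378 TPM, an interaction of 0.25 (0.22 to 0.28, centred 0.30). *Hk3*, the myeloid hexokinase, was at 88.9, 77.8, 92.4 and 152 TPM, an interaction of 0.90 (0.78 to 1.02). *Gpi1*, glucose-6-phosphate isomerase, was at 322, 321, 464 and 751 TPM, an interaction of 0.70 (0.64 to 0.76). All 3 were highest in *Cd300a-/-* SiglecF lo cells, and *Pfkl*, liver-type phosphofructokinase, had 0.61 (0.39 to 0.82). Nuclear-encoded subunits of the respiratory chain leaned down, with 67 of 74 tested below 0, 7 below −1 (6.25% of all genes were, and 6 of these with length centring) and a median of −0.42. They are short (median 1.21 kb), and with length centring their median was −0.10. *Ndufa5*, a subunit of complex I, was at 37.6, 42.9, 41.4 and 13.1 TPM, an interaction of −1.77 (−2.22 to −1.33). *Cox7b*, a subunit of complex IV, was at 249, 212, 152 and 46.00 TPM, an interaction of −1.47 (−1.69 to −1.25, centred −1.10). The 13 protein genes encoded in mitochondria had a median of 0.02, or 0.39 with length centring, none past 1, and *mt-Co2*, the most abundant, had 0.06 (0.04 to 0.09, centred 0.48).

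Translation genes leaned lower in SiglecF lo knockout cells on the TPM scale. Of 82 cytosolic ribosomal protein genes tested 81 were below 0, but 2 passed −1, and 1 of these with length centring. Lower in SiglecF lo knockout cells only were 30 (10.9% of all genes were). That share is not matched for length, and all genes of 1 to 2 kb had a median SiglecF lo difference of −0.35. Their summed level was 84696, 79332, 68876 and 47443 TPM. The median interaction was −0.46, and it shrank to −0.10 with length centring, the median length being 1.17 kb. *Rpl10* was at 1028, 937, 953 and 311 TPM, an interaction of −1.48 (−1.57 to −1.38, centred −1.06). *Rpl36* had −1.06 (−1.17 to −0.95, centred −0.64), *Rpl22l1* −0.95 (−1.19 to −0.70, centred −0.53) and *Fau*, the most abundant, −0.47 (−0.52 to −0.43, centred −0.06). Mitochondrial ribosomal proteins had 2 above 1 and 11 below −1 (6 of these with length centring) of 58 tested, a median of −0.45, and −0.17 with length centring. *Mrpl45* was at 17.6, 14.9, 4.65 and 16.2 TPM, an interaction of 1.84 (1.44 to 2.23), against the lean of its family. Of 14 aminoacyl-tRNA synthetases of the cytosol tested 2 were below −1, which were *Wars* at 21.6, 26.8, 26.5 and 13.9 TPM with −1.19 (−1.46 to −0.92) and *Lars* at 17.8, 17.1, 18.04 and 8.03 TPM with −1.02 (−1.29 to −0.74). Proteasome subunits of the constitutive kind had 33 tested and a median of −0.22, or −0.01 with length centring. Eukaryotic initiation factors had a median of −0.24 over 48 genes, with *Eif1* as the most abundant at −0.18 (centred 0.05).

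Lipid-handling genes were mixed, and lysosomal genes lay near the median of all genes. Of 13 lipid-handling genes tested 2 were below −1. *Fabp4*, which also counts as an endothelial marker, was at 259.8, 349.8, 412 and 117 TPM, an interaction of −2.24 (−2.40 to −2.08, centred −1.82). *Pparg*, a lipid-sensing nuclear receptor, was at 15.98, 17.3, 15.3 and 5.93 TPM, an interaction of −1.34 (−1.72 to −0.96), and *Lpl*, lipoprotein lipase, was at 133, 132, 65.4 and 35.97 TPM, an interaction of −0.84 (−0.97 to −0.71). The last 2 moved in SiglecF lo cells only. Of 32 lysosomal genes tested none passed 1, with a median of 0.04, and *Gaa*, acid α-glucosidase, was the farthest at 0.96. Cholesterol genes had a median of 0.37 over 10 tested. Targets of NRF2, the sensor of oxidants, had 10 of 18 genes below 0, where 3520 of all 6523 genes were. Their median was −0.08, or 0.18 with length centring. Of the 18, 4 were higher in SiglecF lo knockout cells only, beside 7.48% of all genes, among them *Gclm* with 0.98 (0.79 to 1.17). The most abundant of that list, *Gpx1*, had −0.19 (−0.24 to −0.14, centred 0.18).

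Proliferation and heat shock genes leaned down. Of 12 proliferation genes tested 10 were below 0, with a median of −0.47. *Rrm1*, a subunit of ribonucleotide reductase, was at 21.7, 18.6, 12.7 and 4.68 TPM, an interaction of −1.05 (−1.36 to −0.74), and *Mki67* was at 17.7, 13.6, 3.69 and 6.17 TPM, an interaction of 0.96 (0.73 to 1.20, centred 0.69). The former was lowest in *Cd300a-/-* and the latter in WT SiglecF lo cells. Of 15 heat shock genes tested 12 were below 0, with a median of −0.38. *Hspa1b* was at 38.1, 32.6, 14.9 and 35.7 TPM, an interaction of 1.43 (1.18 to 1.69), while *Hspa8*, the most abundant, had −0.03 (−0.08 to 0.01, centred 0.09), *Hspb1* −0.82 (−1.13 to −0.52, centred −0.45) and *Hspd1* −0.75 (−0.96 to −0.55). Genes of the endoplasmic reticulum stress response had a median of 0.00 over 22 tested.

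Markers of other heart cells also differed and are given for their whole lists. Of 8 endothelial markers 7 were tested, all 7 below 0 and 5 below −1, with a median of −1.74. Their summed level was 347, 456, 594 and 179 TPM, with *Fabp4* as the most abundant and none at 0. *Pecam1*, which encodes CD31 and is also on leukocytes, was at 23.2, 30.4, 57.5 and 15.6 TPM, an interaction of −2.20 (−2.40 to −1.99). *Tie1* was at 9.29, 14.5, 21.8 and 8.45 TPM, an interaction of −1.86 (−2.13 to −1.59), and *Cdh5*, which encodes VE-cadherin, was at 16.9, 23.9, 25.1 and 9.91 TPM, an interaction of −1.74 (−1.99 to −1.49). The WT SiglecF lo library was the highest for these genes and *Cd300a-/-* SiglecF lo the lowest. Of 8 fibroblast markers 7 were tested, all 7 above 0, with a median of 0.65, or 0.52 with length centring, and the median knockout difference of these genes was −0.59 for SiglecF hi and 0.07 for SiglecF lo cells. Their summed level was 2196, 1546, 1026 and 1047 TPM, with *Dcn* as the most abundant and none at 0. *Postn*, periostin, was at 234, 175, 95.2 and 168 TPM, an interaction of 1.23 (1.13 to 1.33). *Col1a1*, a collagen chain, was at 291, 186, 133 and 155 TPM, an interaction of 0.86 (0.79 to 0.93, centred 0.74), and *Dpt* had 0.71 (0.52 to 0.91, centred 0.95). The summed level of fibroblast markers was highest in WT SiglecF hi cells.

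Of 9 cardiomyocyte markers 4 were tested, all 4 below 0, with a median of −0.86, a summed level of 62.02, 106, 55.1 and 30.1 TPM, *Mb* as the most abundant and none at 0 in every library. *Actc1*, cardiac actin, had −0.95 (−1.46 to −0.44), and *Myl2*, the ventricular light chain, −0.78 (−1.23 to −0.33). Of 5 erythroid markers 4 were tested, with a summed level of 893, 999.7, 1417 and 780.5 TPM and 2 below −1, *Hbb-bs* with −1.49 (−1.64 to −1.34, centred −1.07) and *Hba-a2*, the most abundant, with −1.09 (−1.23 to −0.96, centred −0.68), but globin genes have near-identical copies and are uncertain singly. Of 5 platelet markers only *Pf4*, which macrophages also express, was tested, and had −0.09 (−0.22 to 0.05, centred 0.33). Of 7 eosinophil markers only *Ear2* was tested, at 109.8, 113, 171 and 85.9 TPM with −1.02 (−1.27 to −0.78, centred −0.61), and *Epx*, the defining peroxidase, was at 0 in all 4 libraries. No marker of dendritic cells, mast cells and basophils, T and NK cells or B cells reached the level for testing, with summed levels of 6.65, 9.15, 13.9 and 2.99 TPM, 0.0405, 0, 0 and 0 TPM, 5.39, 10.9, 6.56 and 6.59 TPM and 8.55, 14.2, 5.09 and 6.22 TPM, and *Cpa3*, *Mcpt8*, *Tpsb2*, *Fcer1a*, *Trac* and *Ighm* were at 0 in all 4 libraries. The part of other cell types in the interaction was not tested.

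The other lists are given by their counts and medians. With none past 1, the median was 0.20 for leukotriene and prostaglandin synthesis (14 tested), −0.24 for the BCL2 family (12), 0.10 for NADPH oxidase (7, 0.17 with length centring), 0.07 for complement genes (11, 0.24 with length centring), 0.08 for checkpoint ligands (10), −0.16 for tubulins (8, −0.01 with length centring and −0.31 with a mean TPM over 1) and 0.03 for Rab GTPases (33). For the V-ATPase (17) it was −0.06, and it took the other sign with length centring, at 0.02. Solute carriers had 3 above 1 and 5 below −1 (3 of these with length centring) of 104 tested, with a median of 0.07, and integrins, selectins and their ligands had 2 below −1 of 18, of which *Pecam1* also counts as an endothelial marker. Iron and heme genes had 1 above 1 of 13 and a median of 0.17 (0.40 with length centring), hypoxia genes 1 of 14, histones 1 above 1 and 2 below −1 of 10, and purinergic receptors 1 below −1 of 12 (0 with length centring).

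Counts of 3 or fewer in a library left 15 tested genes without a usable fold, and 13 of them were past 1. They were *Cd300ld5*, *Ctla2b*, *Fdx2*, *Fmc1*, *Gm10801*, *Gm29094*, *Gm49369*, *Gvin2*, *Krt83*, *Pira1*, *Prss2*, *Psme2b* and *Thyn1*, listed here without a value. Of them *Cd300ld5*, *Ctla2b*, *Gvin2*, *Pira1* and *Psme2b* have near-identical relatives. *Fmc1*, *Fdx2* and *Thyn1* had 0 counts in *Cd300a-/-* SiglecF lo cells and 68, 27 and 64 in WT SiglecF lo cells.

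Which genes would keep an interaction in other pools of mice cannot be read from 1 library per group. Sorting, pooling, depth and mouse-to-mouse variation cannot be told apart from genotype within a subset.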

How the data were processed

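The 4 deposited tables, 1 for each pool of 8 mice, hold whole-number total counts per gene that the authors made from paired-end, poly(A)-selected reads with CLC Genomics Workbench, and the mapping settings are not stated. The deposited TPM were made by the authors from these counts and gene lengths, and the build named is GRCm39. The deposited RPKM, per kilobase and library total, were made by the authors and used here only to recover exon length. The deposited CPM signal, scaled by the authors with 1 factor per library, was not used for any result. Total counts were 19278243, 17632989, 9631901 and 10988619, which gave a median counting error of 0.11 for the interaction.

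The interaction was computed for genes with a mean over 10 TPM, with a pseudocount of 1. Its error was propagated from Poisson errors of the total counts, and the 95% intervals cover counting error only. No test was made, since each group had 1 library. Genes at 3 counts or fewer in any library were counted and listed apart.

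Named genes were the 12 highest and 12 lowest, ranked by the bound of the interval nearest to 0, up to 8 genes of each class, and up to 4 genes of each list (the most abundant, then the largest interactions), together with genes the study names. Genes outside this rule were chosen after their values were seen. Members and lists were chosen with earlier results of these data known.

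Alternatives were a pseudocount of 0.1, other level limits, a threshold of 0.5, the interval's bound past the threshold, CPM with TMM factors from edgeR (1.13, 1.12, 0.911 and 0.866), centring on the median, and TPM rescaled without the 10 highest genes. Centring on the medians of 20 groups of like exon length, a mean over 50 TPM, and more than 3 counts in every library were chosen after seeing the data. Promoters were from RefSeq (GRCm38.p6). The code was tested on simulated data. Python 3.11.15, numpy 2.4.6, pandas 2.3.3, scipy 1.17.1, matplotlib 3.10.9, R 4.3.3 and edgeR 4.0.16 were used.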

Additional observations from a re-analysis of the deposited data

Results flagged for a closer look

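For 5 genes with more than 3 counts in every library, the knockout difference passed 1 in one subset and passed 1 with the opposite sign in the other, and this opposition flagged them. The interaction was 4.97 for *Rtl8a*, 4.25 for *Mgst2* and 2.21 for *Sfrp2*, which were lower in SiglecF hi and higher in SiglecF lo knockout cells. It was −3.17 for *Mb* and −3.02 for *Gm49342*, which were higher in SiglecF hi and lower in SiglecF lo knockout cells. The lowest counts of these genes were 15, 7, 111, 11 and 129, in the same order. The difference between the subsets was not tested, because each group had 1 library.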

How the results depend on the processing

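No paired analysis was possible because each group had 1 library and the labels carry no replicate numbers, and for the same reason no replicate can be left out.

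Genes with an interaction above 1 and below −1 numbered 203 and 408. They numbered 69 and 168 with TPM over 10 in all 4 libraries, 895 and 1275 with a mean TPM over 1, 19 and 74 with a mean TPM over 50 (chosen after seeing the data), 900 and 1326 with a threshold of 0.5, and 90 and 177 with the bound of the interval past the threshold. These settings admit more or fewer genes by construction. Under the other scalings and filters both counts stayed within 1.5 times the reported ones, though with length centring (chosen after seeing the data) they were 251 and 276, so the excess of genes below −1 shrank.

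Genes higher and lower in SiglecF lo cells only, higher and lower in SiglecF hi cells only, and opposite with SiglecF lo higher and lower numbered 288, 472, 21, 21, 5 and 15 with TPM over 10 in all 4 libraries, 1001, 1283, 130, 133, 192 and 235 with a mean TPM over 1, and 99, 278, 3, 5, 0 and 3 with a mean TPM over 50. More genes moved in SiglecF lo than in SiglecF hi cells only under each of these.

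Of the list medians past 0.1, 5 values changed sign, and medians nearer to 0 were not judged by sign. The median of galectins was 0.0563 with a mean TPM over 1 and 0.14 with length centring, that of cathelicidin-like and whey acidic proteins was 0.28 with length centring, and that of the Schlafen family was 0.14 with a mean TPM over 1 and 0.0831 with length centring. The cause was not tested. Of the other list medians 383 values were the same and 50 moved, 30 of them with length centring. Named genes gave 915 values inside the counting interval and 210 outside it, and no gene past 1 changed sign.

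Counting error was largest for weakly expressed genes and for the shallower SiglecF lo libraries, which limits the genes near the level limit most. Differences between pools other than counting error were not measured under any setting.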
